A study of Mus musculus with 24 samples.

Results

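The constructs compared here came from mice given diphtheria toxin and daily local resolvin E1 (RvE1), set against constructs from mice given neither. RNA was sequenced from whole constructs collected 2 weeks after subcutaneous implantation, and one table holds the read counts of all 24 samples of the series. The 8 samples described are the 4 labelled DTR, named (dep)BCP+MSC+RvE1inj in the study, and the 4 labelled MSC, named BCP+MSC. The 4 samples labelled DT, named (dep)BCP+MSC, had the toxin without the injection and are given beside them, as a group without replicate numbers, since their columns are numbered otherwise than the labels. The question is which genes differed from BCP+MSC after the toxin although RvE1 was injected.

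All 3 groups carried the same implant in the same strain. The hosts were male and female Foxp3-DTR/eGFP mice of 8 to 9 weeks, in which the diphtheria toxin receptor is made in cells that express Foxp3. Each mouse carried 2 constructs of 40 mg biphasic calcium phosphate (BCP) granules, each seeded with 800000 bone marrow mesenchymal stromal cells (MSC) of passage 2. The donors were wild-type C57BL/6J mice of 8 weeks by the study's methods, while its design figure names wild-type or Foxp3-eGFP mice. The (dep) groups received 50 µg/kg toxin intraperitoneally on the first 2 days after implantation and again on days 4, 6, 8 and 10. RvE1 was given as 1 µM in 50 µL of saline at the implant site each day. Neither toxin nor an injection was given to the BCP+MSC mice, and no vehicle injection is described for (dep)BCP+MSC, so that toxin, injection and handling cannot be told apart in the comparison with BCP+MSC. Depletion of regulatory T cells was checked by the authors in lymphoid organs, not in the constructs, by flow cytometry at the start and again at 2 weeks. The 4 samples of a group are labelled as biological replicates, each from its own animal by the study's account.

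Regulatory T cells are CD4+ T cells that express the transcription factor Foxp3 and hold other lymphocytes in check. Resolvin E1 is a lipid mediator made from eicosapentaenoic acid that acts through the receptors Cmklr1 and Ltb4r1 and is known for ending neutrophil influx and promoting clearance by macrophages. A mineral granule under the skin is walled in by macrophages, foreign body giant cells and fibroblasts that lay down collagen. An RNA extract of the whole construct therefore holds transcripts of seeded cells, host immune cells, capsule and any adjoining muscle, skin or fat, and fewer cells of a type cannot be told apart from less RNA per cell.

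The 8 libraries held 13803176 to 84138305 counts, and 2 of the (dep)BCP+MSC+RvE1inj libraries, replicates 3 and 4, had 13803176 and 15230930. Values below are counts per 1000000 (CPM) scaled by TMM factors. Y-linked genes were above Xist in 4 of 4 (dep)BCP+MSC+RvE1inj libraries and in 1 of 4 BCP+MSC libraries, replicate 4, so that sex nearly coincided with the comparison. No tested member of the 38 gene lists used below was at 0 in all 8 libraries. Skeletal muscle transcripts summed to 9126 to 42810 CPM in (dep)BCP+MSC+RvE1inj and 453 to 32260 CPM in BCP+MSC, where replicate 2 was the lowest. Skin and hair transcripts summed to 29.2 to 140.5 CPM and 26.2 to 73.6 CPM. Their part in the results was not tested, except where a fit with a muscle, skin, depth or sex term is quoted. Of 22 skeletal muscle and 19 skin genes, 0 were called in either direction.

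A total of 74 genes were higher and 128 lower in (dep)BCP+MSC+RvE1inj than in BCP+MSC, or 0.242% and 0.419% of the 30564 genes tested (edgeR quasi-likelihood test on all 24 libraries, Benjamini-Hochberg adjusted p under 0.05 and log2 fold change beyond 1). These are the genes referred to as called. Genes higher included glucocorticoid and clock genes, T cell genes and genes of muscle wasting. Genes lower included collagens, proteoglycans and other products of fibroblasts. The median log2 fold change was 1.95 over the genes called higher and -1.70 over those called lower, against -0.04 over all genes tested. The 4 libraries of one group lay entirely above the 4 of the other for 70 of the 74 genes and entirely below for 126 of the 128, while over all genes tested this held for 2.77% and 4.44%. The genes were called on these same libraries, so that their separation is not independent support for the calls. At an unadjusted p under 0.05 with the same fold the counts were 1551 and 1338. With a sex term in the fit 147 were higher and 204 lower, and 146 of the 202 remained called.

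**Figure D1:**
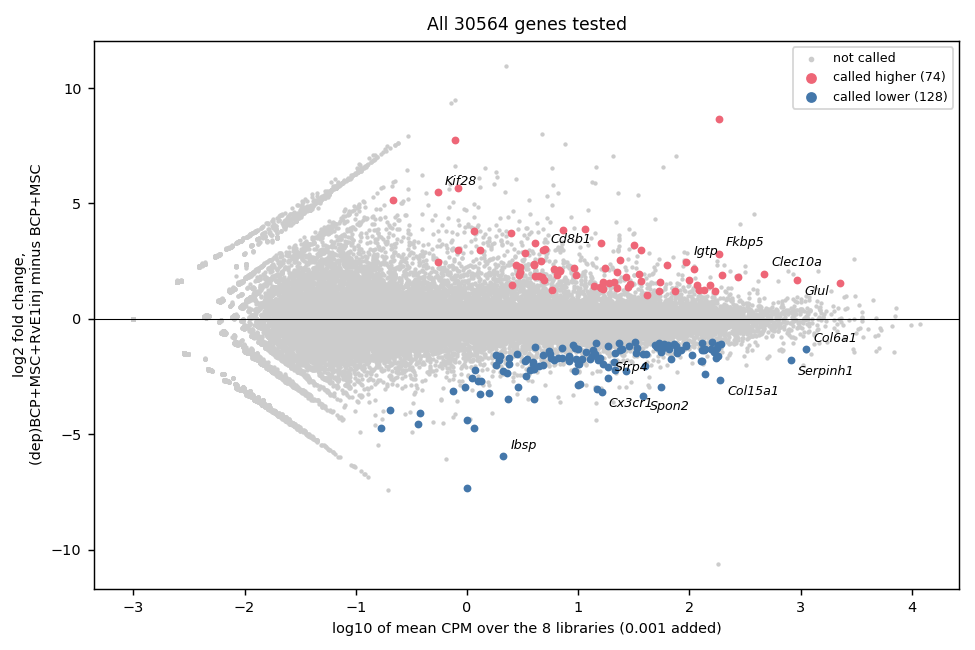
Log2 fold change between (dep)BCP+MSC+RvE1inj and BCP+MSC on the vertical axis against the log10 of the mean CPM over the 8 libraries, with one point per gene tested. The 74 genes called higher (red) and 128 called lower (blue) include Fkbp5 at 2.83 and Cx3cr1 at -3.18, and most genes of low level stay grey at large fold changes.

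Beside these values stand those of the toxin without the injection. Over the 74 genes called higher, the median log2 fold change of (dep)BCP+MSC against the same BCP+MSC libraries was 1.80, and over the 128 called lower it was -1.83. Both comparisons share the BCP+MSC libraries. In the direct test of (dep)BCP+MSC+RvE1inj against (dep)BCP+MSC, edgeR called 0 genes and the smallest adjusted p was 0.668, although 2269 genes had an unadjusted p under 0.05. DESeq2 called 5 higher and 4 lower in that test. The median log2 difference between the 2 toxin groups was 0.04 over the genes called higher and 0.11 over those called lower. Of these 74 and 128 genes, 17 and 13 had an unadjusted p under 0.05, beside 2269 of all 30564 tested. They were chosen with the same injected libraries, so that their values here are not an independent test of the injection.

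Foxp3, the gene behind the toxin receptor of this strain (ENSMUSG00000039521.12, chrX:7579676-7595243, GRCm38, as are all positions), was sparsely read in every group. Its level was 1.04, 1.19, 0.629 and 0.876 CPM in BCP+MSC replicates 1 to 4 and 0.701, 0.754, 0.298 and 1.07 CPM in (dep)BCP+MSC+RvE1inj replicates 1 to 4. The ranges overlapped, and the log2 difference of -0.39 ± 0.51 (SE, n = 4 and 4) was within the spread between replicates (edgeR adjusted p = 0.777, exact permutation p = 0.314). Its range in (dep)BCP+MSC was 0.378 to 1.70 CPM. Toxin was last given on day 10, before collection at 2 weeks, and the gene overlaps Flicr on its own strand and Ccdc22 and Gm36995 on the other, so that some reads may belong to these.

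Among 17 regulatory T cell genes, 1 was called higher and 1 lower, with a median log2 fold change of 0.44. Tigit, an inhibitory receptor of T and NK cells, was at 1.31, 0.656, 1.14 and 2.21 CPM in BCP+MSC and at 7.10, 8.36, 3.36 and 7.64 CPM in (dep)BCP+MSC+RvE1inj. Every injected library lay above every BCP+MSC library, with a log2 difference of 2.32 ± 0.56 (adjusted p = 0.04997), but the call was lost whichever of the 8 libraries was left out (adjusted p up to 0.172). Ctla4, which dampens costimulation, did not pass (1.61 ± 0.48, adjusted p = 0.122), with 4.45, 2.79, 7.91 and 3.73 CPM in BCP+MSC and 13.5, 13.5, 13.9 and 16.9 CPM in (dep)BCP+MSC+RvE1inj. The injected libraries were again the higher ones without overlap. Lrrc32, the surface anchor of latent TGF-beta on regulatory T cells, which endothelial and stromal cells also express, was lower, at 112, 116, 98.2 and 96.5 CPM in BCP+MSC and 44.5, 35.9, 19.7 and 25.1 CPM in (dep)BCP+MSC+RvE1inj. Its log2 difference was -1.75 ± 0.27 (adjusted p = 0.00358), and (dep)BCP+MSC ranged from 21.3 to 44.5 CPM.

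The gene with the smallest adjusted p was Fkbp5, a co-chaperone of the glucocorticoid receptor that the receptor itself induces (ENSMUSG00000024222.16, chr17:28399095-28517524). It was at 39.4, 39.4, 38.2 and 64.0 CPM in BCP+MSC and at 242, 396, 309 and 342 CPM in (dep)BCP+MSC+RvE1inj. The lowest injected library was well above the highest BCP+MSC library, which was the male replicate 4. The log2 difference was 2.83 ± 0.32 (n = 4 and 4, adjusted p = 0.00013, exact permutation p = 0.0286, the smallest that 4 against 4 can give). The (dep)BCP+MSC libraries ranged from 205 to 840.1 CPM, and the 2 toxin groups differed by -0.60 on the log2 scale (unadjusted p = 0.059). The call held in each fit that left out 1 library. In male libraries only, with 1 BCP+MSC library, the log2 difference was 2.33.

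Tsc22d3, known as GILZ, is another gene induced by the glucocorticoid receptor. Its level was 108, 80.9, 174 and 117 CPM in BCP+MSC and 272, 439, 565 and 435 CPM in (dep)BCP+MSC+RvE1inj. No libraries overlapped and the log2 difference was 1.83 ± 0.33 (adjusted p = 0.00817). Fam107a, a stress-responsive regulator of actin that glucocorticoids induce (chr14:8296274-8318023), rose by 3.29 ± 0.51 on the log2 scale (adjusted p = 0.00377), from 0.709, 0.504, 0.579 and 1.23 CPM to 2.87, 10.9, 7.31 and 8.65 CPM. Replicate 1 was the lowest injected library and still exceeded all BCP+MSC libraries. Depp1, a small protein induced by progestins and by FoxO factors, rose by 3.20 ± 0.51 (adjusted p = 0.00556), with 5.67, 3.19, 9.71 and 6.52 CPM in BCP+MSC against 61.7, 48.4, 86.7 and 33.9 CPM.

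Of the 21 genes in the glucocorticoid response list, 2 were called higher, Fkbp5 and Tsc22d3, and 0 lower. The median log2 fold change was 1.49 in (dep)BCP+MSC+RvE1inj and 1.60 in (dep)BCP+MSC, and 10 of the 21 lay above BCP+MSC without overlap. Members that did not pass included Pdk4, a kinase that shuts pyruvate out of oxidation, at 2.33 ± 0.85 (adjusted p = 0.227), Klf15, a metabolic transcription factor, at 2.13 ± 0.68 (adjusted p = 0.163) and the zinc-binding Mt2 at 1.79 ± 0.84 (adjusted p = 0.352). Nr3c1, the receptor itself, was at -0.41 ± 0.27 (adjusted p = 0.524). The list's summed level was 1242 to 2346 CPM in BCP+MSC and 2639 to 5179 CPM in (dep)BCP+MSC+RvE1inj, without overlap.

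The circadian clock is a loop in which Clock or Npas2 pairs with Arntl to switch on the Per and Cry genes, whose products shut the pair off, and Dbp, Tef and Hlf pass the rhythm on to output genes. Of 18 clock genes, 3 were called higher and 1 lower. Per2, a repressor of the loop (chr1:91415982-91459324), was at 8.38, 12.7, 9.09 and 8.44 CPM in BCP+MSC and at 23.1, 27.8, 29.7 and 31.8 CPM in (dep)BCP+MSC+RvE1inj. The groups did not overlap, and the log2 difference was 1.54 ± 0.26 (adjusted p = 0.00556). Tef was at 54.8, 45.0, 64.0 and 81.3 CPM against 107, 161, 294 and 120.2 CPM, with a log2 difference of 1.48 ± 0.31 (adjusted p = 0.0246). Replicate 3 was the highest of the injected libraries, and Tef lost its call without injected replicate 3 or BCP+MSC replicates 1, 2 or 3 (adjusted p up to 0.133).

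Npas2, an activator, moved the other way (chr1:39193731-39363236). It was at 21.4, 23.6, 14.6 and 20.7 CPM in BCP+MSC and at 9.29, 8.84, 4.48 and 3.91 CPM in (dep)BCP+MSC+RvE1inj, a log2 difference of -1.58 ± 0.28 (adjusted p = 0.00816). The 2 shallow libraries, replicates 3 and 4, were the lowest, and Npas2 lost its call without injected replicate 4 (adjusted p up to 0.0525). Its partner Arntl was at -0.77 ± 0.26 on the log2 scale (adjusted p = 0.184) and Clock at -0.22 ± 0.21 (adjusted p = 0.676). Per3, a further repressor, passed the threshold at 1.38 ± 0.31 (adjusted p = 0.0355), whereas Per1 at 1.49 ± 0.40 (adjusted p = 0.0859), Cry2 at 1.34 ± 0.39 (adjusted p = 0.113) and Dbp at 1.06 ± 0.46 (adjusted p = 0.304) did not. Per3 lost its call without injected replicates 2, 3 or 4 or any one BCP+MSC library (adjusted p up to 0.117). The list median was 0.72 with injection and 1.14 in (dep)BCP+MSC. With a sex term in the fit 2 clock genes were called higher and 1 lower, and in male libraries alone 0 and 0. The hour of collection is not given in the sources used here.

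**Figure D2:**
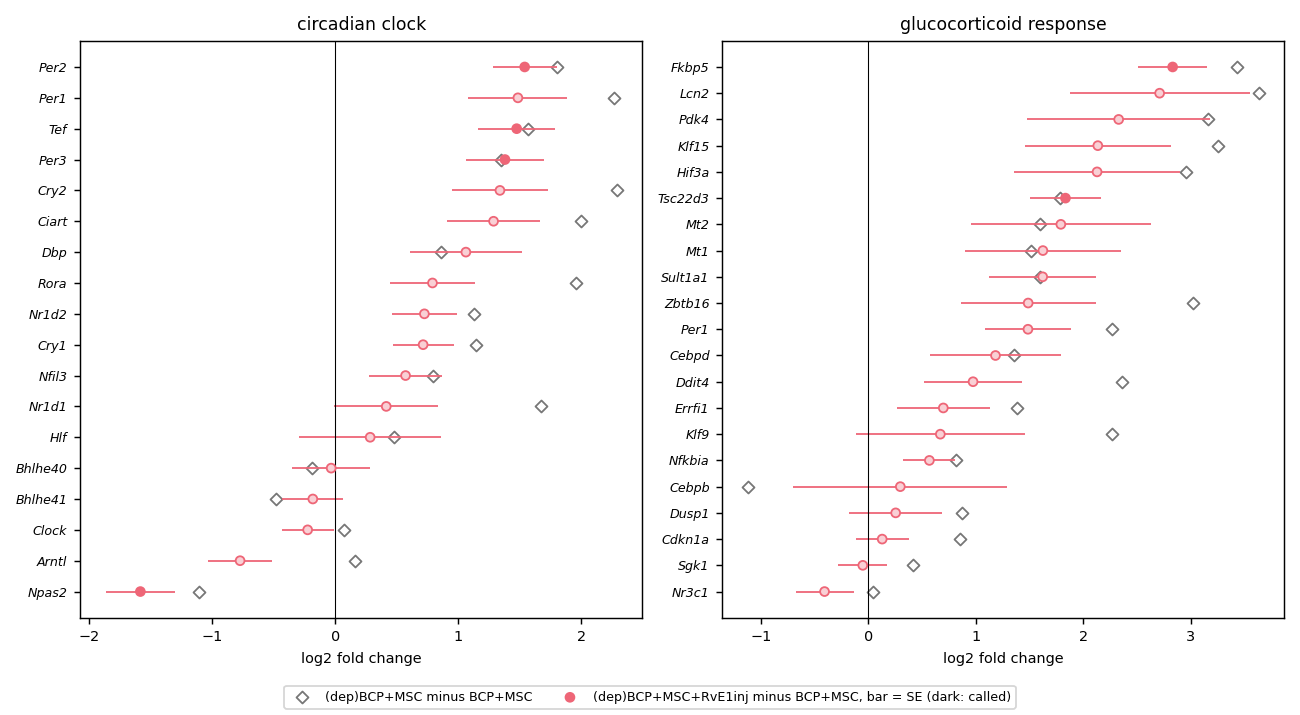
Log2 fold change against BCP+MSC (horizontal axis) of each member of the circadian clock and glucocorticoid response lists, for (dep)BCP+MSC+RvE1inj (circles, bar = SE, dark where called) and (dep)BCP+MSC (diamonds). Per2, Tef, Per3, Fkbp5 and Tsc22d3 are the members called higher and Npas2 the one called lower, and both comparisons use the same BCP+MSC libraries.

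Promoter windows of 300 bases (250 before and 50 after a gene's start) from RefSeq matched 53 of the 74 genes called higher and 88 of the 128 called lower. Those of clock genes are shown because elements through which the clock acts can be read in them. CACGTG, the E-box bound by the Clock and Arntl pair, reads the same on both strands and was present in 7.15% of 32851 windows of GRCm38.p6 and in 8.11% of the 74 windows of genes called higher. TTATGTAA, the D-box bound by Tef, Dbp and Hlf, was searched on both strands and was present in 0.938% and 1.35% of them. The Tef window below lies at chr15:81811164-81811463 on the plus strand, with its E-box in capitals, and the Per3 window at chr4:151044616-151044915 on the minus strand, with 2 D-boxes in capitals. Both are written 5′ to 3′. Another Tef window, at chr15:81802423-81802722, also holds 1 E-box. A match describes letters only.
Tef: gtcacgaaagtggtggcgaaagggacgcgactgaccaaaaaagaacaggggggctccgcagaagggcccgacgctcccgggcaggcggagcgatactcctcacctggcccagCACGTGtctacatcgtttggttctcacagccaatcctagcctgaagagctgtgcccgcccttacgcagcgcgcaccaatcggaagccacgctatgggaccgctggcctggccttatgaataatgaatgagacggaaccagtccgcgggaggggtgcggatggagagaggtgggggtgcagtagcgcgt
Per3: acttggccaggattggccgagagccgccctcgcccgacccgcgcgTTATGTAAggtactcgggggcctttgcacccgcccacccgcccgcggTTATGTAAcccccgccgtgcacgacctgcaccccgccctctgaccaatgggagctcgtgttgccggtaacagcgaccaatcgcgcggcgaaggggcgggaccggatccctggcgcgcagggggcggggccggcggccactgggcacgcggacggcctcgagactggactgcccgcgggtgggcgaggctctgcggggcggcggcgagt

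ACANNNTGT, the paired half-sites of the glucocorticoid receptor, was present on either strand in 6.85% of all windows, 13.5% of windows of genes called higher (10 of 74) and 5.0% of windows of genes called lower (6 of 120). Counted by gene, these were 7.9% of all genes with a window, 15.1% of genes called higher (8 of 53) and 6.82% of genes called lower (6 of 88). Among the 10 windows 2 belong to Fam107a and share the same match, and the one at chr14:8309730-8310029 on the minus strand is shown with the match in capitals.
Fam107a: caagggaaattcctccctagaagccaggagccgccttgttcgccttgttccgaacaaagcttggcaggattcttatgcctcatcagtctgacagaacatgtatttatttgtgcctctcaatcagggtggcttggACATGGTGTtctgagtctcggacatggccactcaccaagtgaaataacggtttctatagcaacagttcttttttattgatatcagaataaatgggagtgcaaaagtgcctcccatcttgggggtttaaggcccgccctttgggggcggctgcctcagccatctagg

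Of 14 fibrillar and fibril-associated collagens 3 were called lower and 0 higher, all 14 had a negative log2 fold change, and 9 lay below BCP+MSC without overlap. Their median was -1.32, against -1.57 in (dep)BCP+MSC. Summed, they held 20390 to 47400 CPM in BCP+MSC and 4755 to 18410 CPM in (dep)BCP+MSC+RvE1inj. Col6a1, a chain of the beaded filaments that surround cells, was at 1415, 2035, 1220 and 1687 CPM in BCP+MSC and 795, 874, 305 and 584 CPM in (dep)BCP+MSC+RvE1inj. No libraries overlapped, with replicate 3 the lowest, and the log2 difference was -1.31 ± 0.30 (adjusted p = 0.0385).

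The other collagens called were Col14a1, which decorates fibrils, at -1.60 ± 0.38 (adjusted p = 0.0448) and Col16a1, another fibril-associated chain, at -1.30 ± 0.30 (adjusted p = 0.037). Col6a1 lost its call without injected replicates 1, 3 or 4 or BCP+MSC replicates 1, 2 or 4 (adjusted p up to 0.17), Col14a1 lost its call without injected replicates 2, 3 or 4 or any one BCP+MSC library (adjusted p up to 0.171), and Col16a1 lost its call without injected replicates 3 or 4 or BCP+MSC replicates 1, 2 or 3 (adjusted p up to 0.165). With replicate 3 or replicate 4 of (dep)BCP+MSC+RvE1inj left out 0 collagens of the list were called, with median log2 fold changes of -1.12 and -1.21, and the same held without BCP+MSC replicate 1 or 2, at -1.38 and -1.08. Col1a1, the main chain of type I collagen of bone and capsule, was at 6805, 10070, 5277 and 6440 CPM against 4030, 4278, 1173 and 2302 CPM. Its libraries did not overlap, but the log2 difference of -1.28 ± 0.44 missed the threshold (adjusted p = 0.195), as did Col1a2 at -1.40 ± 0.44 (adjusted p = 0.142). Col27a1, a fibrillar collagen of cartilage, was at -0.82 ± 0.40 (adjusted p = 0.373) with overlapping libraries, and at 0.056 in male libraries alone.

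Outside that list, 2 collagens stood among the 8 lower genes with the smallest adjusted p. Col15a1, a basement membrane collagen of vessels and muscle (ENSMUSG00000028339.17, chr4:47208161-47313167), was at 305, 436, 296 and 257 CPM in BCP+MSC and 89.4, 56.7, 23.9 and 35.2 CPM in (dep)BCP+MSC+RvE1inj. The highest injected library, replicate 1, was far below the lowest BCP+MSC library, and the log2 difference was -2.65 ± 0.39 (adjusted p = 0.00259). Col8a2, a short-chain collagen of subendothelial matrix, was at 14.9, 18.6, 11.0 and 25.2 CPM in BCP+MSC and 2.92, 1.98, 1.27 and 3.32 CPM in (dep)BCP+MSC+RvE1inj, a log2 difference of -2.87 ± 0.45 (adjusted p = 0.00377). Both calls held in every fit with 1 library left out. In male libraries only, with 1 BCP+MSC library, the log2 differences were -2.32 and -3.40.

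Of 22 collagen processing enzymes 1 was called lower, with a median of -0.68. This was Serpinh1, the chaperone Hsp47 that collagen needs to fold, at 1209, 1459, 1181 and 1230 CPM in BCP+MSC and 565, 419, 204 and 273 CPM in (dep)BCP+MSC+RvE1inj. Without overlap between the groups, the log2 difference was -1.80 ± 0.37 (adjusted p = 0.0203), and Serpinh1 lost its call without injected replicates 3 or 4 or BCP+MSC replicate 2 (adjusted p up to 0.113). The crosslinking enzyme Lox was at 0.04 ± 0.41 (adjusted p = 0.99) and the hydroxylase P4ha1 at -0.68 ± 0.40 (adjusted p = 0.462).

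Of 24 other matrix genes 3 were called lower, 23 had a negative log2 fold change and the median was -1.11. Fmod, the proteoglycan fibromodulin that sets fibril width (chr1:134037254-134048277), was at 29.2, 30.2, 26.0 and 21.4 CPM in BCP+MSC and 8.29, 8.86, 4.40 and 6.10 CPM in (dep)BCP+MSC+RvE1inj. All 4 injected libraries lay below the lowest BCP+MSC library, and the log2 difference was -1.94 ± 0.31 (adjusted p = 0.00377). In (dep)BCP+MSC it ranged from 1.79 to 5.08 CPM, and the injected group exceeded it by 0.92 (unadjusted p = 0.00581, not passing adjustment). Mfap5, a microfibril protein, was at -1.14 ± 0.20 (adjusted p = 0.00816) and the microfibril backbone Fbn2 at -2.20 ± 0.43 (adjusted p = 0.016). Mfap5 lost its call without injected replicates 3 or 4 (adjusted p up to 0.0593), and Fbn2 lost its call without injected replicates 3 or 4 or BCP+MSC replicate 2 (adjusted p up to 0.0784). Periostin (Postn) at -1.51 ± 0.38 (adjusted p = 0.0648) and tenascin C (Tnc) at -1.98 ± 0.50 (adjusted p = 0.0695) did not pass, and the proteoglycan lumican (Lum) was at -1.05 ± 0.38 (adjusted p = 0.21).

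Fap, a surface protease of activated fibroblasts (ENSMUSG00000000392.17, chr2:62500943-62574075), had the smallest adjusted p among genes that were lower. It was at 26.6, 41.9, 32.1 and 29.9 CPM in BCP+MSC and 11.2, 11.1, 4.78 and 9.00 CPM in (dep)BCP+MSC+RvE1inj, with replicate 3 the lowest and no overlap. The log2 difference was -1.85 ± 0.25 (adjusted p = 0.00139), and (dep)BCP+MSC ranged from 6.38 to 8.94 CPM. It was the only one called of 21 myofibroblast and TGF-beta genes, whose median was -0.45. The smooth muscle actin gene Acta2, for instance, was at -0.65 ± 0.32 (adjusted p = 0.38) and Tgfb1 at -0.39 ± 0.25 (adjusted p = 0.504).

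Sfrp4, a secreted antagonist of Wnt ligands (chr13:19623175-19632821), was lower in all 4 libraries to a like level. It was at 26.0, 40.4, 38.2 and 21.2 CPM in BCP+MSC and 6.13, 4.89, 5.07 and 4.97 CPM in (dep)BCP+MSC+RvE1inj, a log2 difference of -2.58 ± 0.38 (adjusted p = 0.00259). In (dep)BCP+MSC it ranged from 0.698 to 3.90 CPM, below all injected libraries, and the difference between the toxin groups of 1.00 had an unadjusted p of 0.0112 that did not pass adjustment. It was the one member called of 10 Wnt antagonists measured (median -0.11). Spon2, a matrix protein that also binds bacterial surfaces, was at 58.3, 95.3, 91.0 and 31.8 CPM in BCP+MSC against 11.1, 4.47, 4.70 and 7.11 CPM, a log2 difference of -3.33 ± 0.47 (adjusted p = 0.00259). Chst3, which sulfates chondroitin, was at 7.99, 8.56, 4.63 and 4.65 CPM against 2.21, 1.37, 0.821 and 1.30 CPM, with -2.15 ± 0.32 on the log2 scale (adjusted p = 0.00259). Of 19 matrix metalloproteinases and their inhibitors 0 were called, with a median of -0.38.

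**Figure D3:**
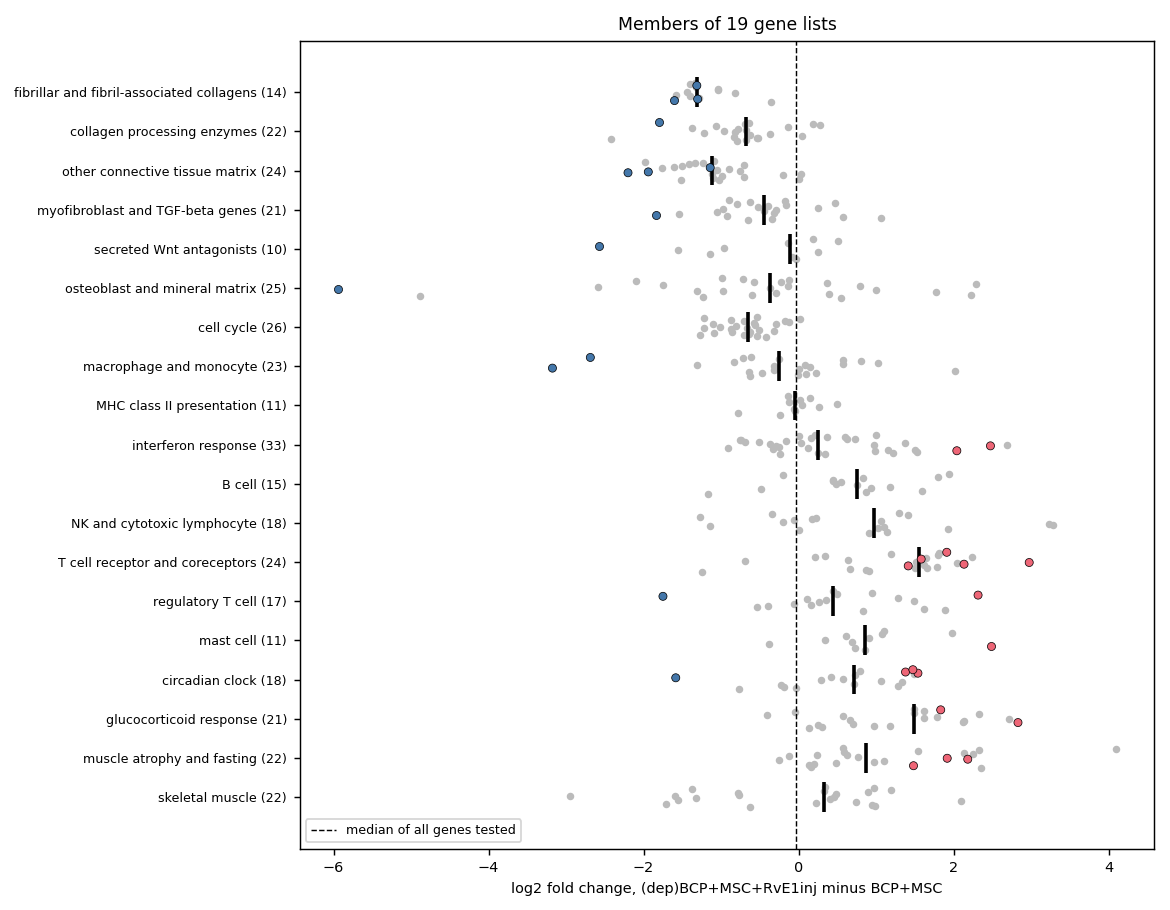
Log2 fold change between (dep)BCP+MSC+RvE1inj and BCP+MSC (horizontal axis) of every tested member of 19 gene lists, with the number tested in brackets, the list median as a black bar and members called higher or lower in red and blue. The collagen median lies at -1.32 and that of the T cell list at 1.55, against -0.04 for all genes (dashed line).

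Of 25 osteoblast and mineral matrix genes 1 was called lower. This was Ibsp, bone sialoprotein, which nucleates mineral, and 1 library set its size. It was at 0.546, 0.305, 0.496 and 15.4 CPM in BCP+MSC and at 0.0818, 0.108, 0 and 0 CPM in (dep)BCP+MSC+RvE1inj. Replicate 4 of BCP+MSC stood apart, and although no libraries overlapped, without it the log2 difference moved from -5.94 ± 1.38 (adjusted p = 0.0456) to -2.73, which did not pass (adjusted p = 0.245). The call was also lost without any one of the injected libraries. Sp7, the osteoblast transcription factor osterix, was at 0.0546, 0.443, 0.132 and 0.460 CPM in BCP+MSC and 0.152, 0.0808, 0.895 and 0 CPM in (dep)BCP+MSC+RvE1inj, too few reads for a direction. Bglap3, an osteocalcin-related gene that shares sequence with its neighbours Bglap and Bglap2, was at 2.22 ± 1.71 (adjusted p = 0.594) with overlapping libraries. Runx2, the first transcription factor of the lineage, was at -0.58 ± 0.26 (adjusted p = 0.329), and the list median was -0.37, or -0.0034 without BCP+MSC replicate 4.

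Of 24 cartilage genes 1 was called higher, Prg4, the lubricating proteoglycan lubricin of joint linings. It was at 8.51, 3.88, 6.26 and 6.07 CPM in BCP+MSC and 18.8, 35.6, 14.2 and 46.3 CPM in (dep)BCP+MSC+RvE1inj, above without overlap, a log2 difference of 2.22 ± 0.49 (adjusted p = 0.0319). Prg4 lost its call without injected replicates 2 or 4 or any one BCP+MSC library (adjusted p up to 0.133). The list median was -0.65, -0.23 with a sex term and 0.016 in male libraries alone. Of 15 osteoclast and giant cell genes 1 was called higher, Clec10a, a galactose-binding lectin of macrophages and dendritic cells. It was at 138, 55.7, 392 and 176 CPM in BCP+MSC and 579, 798, 582 and 1004 CPM in (dep)BCP+MSC+RvE1inj. All injected libraries exceeded the highest BCP+MSC library, replicate 3, and the log2 difference was 1.96 ± 0.40 (adjusted p = 0.0185). Clec10a lost its call without injected replicate 4 or BCP+MSC replicates 1 or 4 (adjusted p up to 0.0849). The osteoclast fusion protein Dcstamp was at -1.70 ± 0.56 (adjusted p = 0.182), the protease Ctsk at -0.05 ± 0.30 (adjusted p = 0.973) and the list median at -0.49.

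Among the lymphocyte lists, that of T cells had the most genes called. Of 24 genes of the T cell receptor and its coreceptors 5 were called higher and 0 lower, 15 lay above BCP+MSC without overlap and the median was 1.55. The median in (dep)BCP+MSC was 0.78. The list summed to 280 to 329 CPM in BCP+MSC, 336 to 499.7 CPM in (dep)BCP+MSC+RvE1inj and 155 to 447 CPM in (dep)BCP+MSC. Cd6, a costimulatory receptor of T cells (ENSMUSG00000024670.16, chr19:10789341-10830058), was at 2.43, 1.83, 2.73 and 3.02 CPM in BCP+MSC and 11.4, 8.45, 11.8 and 12.4 CPM in (dep)BCP+MSC+RvE1inj. The lowest injected library, replicate 2, was well above all BCP+MSC libraries, and the log2 difference was 2.13 ± 0.34 (adjusted p = 0.00377). Cd6 in (dep)BCP+MSC ranged from 2.49 to 9.40 CPM, and the toxin groups differed by 0.76 (unadjusted p = 0.0275, not passing adjustment).

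Cd4, the coreceptor of helper and regulatory T cells, was at 5.54, 6.58, 10.4 and 7.51 CPM in BCP+MSC and 25.3, 21.6, 11.9 and 21.2 CPM in (dep)BCP+MSC+RvE1inj. Its groups did not overlap, though injected replicate 3 came close to BCP+MSC replicate 3, and the log2 difference was 1.42 ± 0.31 (adjusted p = 0.0278). Cd8b1, the beta chain of the cytotoxic coreceptor, was at 1.06, 0.458, 1.56 and 1.29 CPM against 6.21, 7.05, 15.6 and 5.69 CPM, with replicate 3 the highest. The log2 difference was 2.98 ± 0.68 (adjusted p = 0.0355), but Cd8b1 lost its call without injected replicates 2, 3 or 4 or any one BCP+MSC library (adjusted p up to 0.136), and Cd4 lost its call without injected replicates 1, 2 or 4 or BCP+MSC replicates 1, 2 or 4 (adjusted p up to 0.0934). Zap70 and Lck, kinases of the receptor, were at 1.91 ± 0.44 (adjusted p = 0.0386) and 1.58 ± 0.37 (adjusted p = 0.0444). Lck lost its call whichever library was left out (adjusted p up to 0.157) and Zap70 lost its call without any one injected library or BCP+MSC replicates 1, 2 or 4 (adjusted p up to 0.143).

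The receptor chains themselves lay above BCP+MSC without passing the threshold, with Trac at 1.80 ± 0.46 (adjusted p = 0.0666) and Cd3g at 1.79 ± 0.51 (adjusted p = 0.107). Slamf1 at 2.24 ± 0.62 (adjusted p = 0.0921) and the costimulator Icos at 1.51 ± 0.44 (adjusted p = 0.115) did not pass either. Ccr7, the homing receptor of naive T cells, had the opposite sign at -1.24 ± 0.35 (adjusted p = 0.0979). With a sex term in the fit only 1 member was called higher and 1 lower, with a median of 1.27, and in male libraries alone 0 were called, with a median of 1.36. Leaving out single libraries left 1 to 3 members called.

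Of 18 NK and cytotoxic genes 0 were called, with a median of 0.97, which was 0.22 with a sex term and 0.53 in male libraries alone. Gzmk, a granzyme, was at 3.29 ± 0.88 (adjusted p = 0.0794). Ccl5, a chemokine of T and NK cells, was at 13.9, 5.56, 14.3 and 15.3 CPM in BCP+MSC and 20.0, 25.2, 29.6 and 17.4 CPM in (dep)BCP+MSC+RvE1inj, without overlap, and its log2 difference of 0.91 ± 0.45 did not pass (adjusted p = 0.378). The median over 14 genes of the IL-17 axis was 0.30, and 0.015 with a sex term. Il17f, a cytokine of T helper 17 cells, had 0 counts in all BCP+MSC libraries. Injected replicates 1 to 4 held 2, 6, 3 and 3 counts (0.0234, 0.0808, 0.224 and 0.178 CPM). These lie near the floor of 3 counts per library, so that no fold is given, and the gene did not pass (adjusted p = 0.0799). Of 18 type 2 response genes 0 were called, with a median of 0.31 that turned to -0.48 with a sex term in the fit.

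Of 15 B cell genes 0 were called, and the median was 0.76 against -0.91 in (dep)BCP+MSC. Cd79a, the signalling chain of the B cell receptor, was at 3.00, 1.08, 9.60 and 4.04 CPM in BCP+MSC and 18.3, 1.43, 2.98 and 17.5 CPM in (dep)BCP+MSC+RvE1inj. Replicates 1 and 4 were high and replicates 2 and 3 were within the range of BCP+MSC, so that the log2 difference of 1.18 ± 0.73 stayed inside the spread (adjusted p = 0.491). Cd27, a costimulator of T cells and memory B cells, was at 2.37, 1.37, 1.94 and 2.72 CPM against 4.03, 3.94, 3.88 and 4.21 CPM, without overlap, with a log2 difference of 0.93 ± 0.42 (adjusted p = 0.32). Of 19 plasma cell and immunoglobulin genes 1 was called higher, Ighg2c, the constant region of IgG2c. It was at 4.80, 3.36, 2.90 and 1.01 CPM in BCP+MSC and 79.6, 5.71, 4.48 and 27.4 CPM in (dep)BCP+MSC+RvE1inj. The log2 difference was 3.29 ± 0.76 (adjusted p = 0.0465), replicate 1 was the highest and replicate 3 lay within the BCP+MSC range. Ighg2c lost its call without injected replicates 1 or 4 or any one BCP+MSC library (adjusted p up to 0.137), and without injected replicate 1 its log2 difference was 2.12. The list median was 1.32, against 0.62 with a sex term and 0.64 without injected replicate 1, and that of the B cell list was 0.49 without the same library. Reads may be split among near-identical constant regions. In the direct test of the toxin groups the median was 1.58 over the B cell list and 1.20 over the plasma cell list, with 0 genes called.

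Of 33 interferon response genes 2 were called higher and 0 lower, with a median of 0.26 against -0.42 in (dep)BCP+MSC. Gbp4, a guanylate-binding protein induced by interferon gamma, was at 4.28, 10.8, 6.64 and 13.1 CPM in BCP+MSC and 30.6, 42.7, 46.0 and 24.5 CPM in (dep)BCP+MSC+RvE1inj, without overlap, a log2 difference of 2.04 ± 0.40 (adjusted p = 0.0155). Igtp, an immunity-related GTPase also induced by interferon gamma, was at 25.5, 28.8, 30.6 and 28.4 CPM against 91.2, 172, 308 and 59.3 CPM, highest in replicate 3. Its log2 difference was 2.48 ± 0.57 (adjusted p = 0.0465), and (dep)BCP+MSC ranged from 14.5 to 78.6 CPM, which the injected group exceeded by 1.85 (unadjusted p = 0.00336, not passing adjustment). Gbp4 lost its call without injected replicate 3 or BCP+MSC replicate 1 (adjusted p up to 0.066), and Igtp lost its call without injected replicates 2, 3 or 4 or any one BCP+MSC library (adjusted p up to 0.181). Gbp4 overlaps Gbp8 and Gbp9, and Igtp overlaps Irgm2, on the same strand. Genes more typical of type I interferon included Irf7 at -0.37 ± 0.44 (adjusted p = 0.753) and Ifit1 at 0.12 ± 0.49 (adjusted p = 0.952). Of 11 MHC class II genes 0 were called, with a median of -0.05 here and -1.19 in (dep)BCP+MSC, and a median of 1.01 and 0 calls in the direct test of the toxin groups.

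Of 23 macrophage and monocyte genes 2 were called lower. Cx3cr1, the fractalkine receptor of patrolling monocytes and resident macrophages (ENSMUSG00000052336.7, chr9:119901616-120069879), was at 26.1, 43.9, 27.5 and 19.4 CPM in BCP+MSC and 2.98, 2.09, 6.12 and 1.95 CPM in (dep)BCP+MSC+RvE1inj. Replicate 3 was the highest of the injected libraries and still under the lowest BCP+MSC library. The log2 difference was -3.18 ± 0.47 (adjusted p = 0.00259), and (dep)BCP+MSC ranged from 1.25 to 2.71 CPM. Cx3cr1 overlaps several genes, among them Gorasp1, Csrnp1 and Xirp1 on the same strand. Timd4, a phosphatidylserine receptor of resident macrophages, was at 2.65, 0.900, 2.65 and 3.09 CPM against 0.315, 0.552, 0.149 and 0.355 CPM, a log2 difference of -2.69 ± 0.62 (adjusted p = 0.0364), and Timd4 lost its call without any one injected library or BCP+MSC replicates 1, 3 or 4 (adjusted p up to 0.131). Csf1r, the growth factor receptor of the whole lineage, averaged 690 ± 72.2 CPM in BCP+MSC and 692 ± 222 CPM (SD, n = 4 each) in (dep)BCP+MSC+RvE1inj. Cd68 was at -0.31 ± 0.33 (adjusted p = 0.717), and the list median was -0.25.

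Among 14 neutrophil genes Padi4, which citrullinates histones, was called lower at -1.93 ± 0.42 (adjusted p = 0.0295) while the list median was 0.39, and 0.11 with a sex term. Padi4 lost its call without injected replicates 2, 3 or 4 or BCP+MSC replicates 2 or 3 (adjusted p up to 0.131). Among 11 mast cell genes Fcer1a, the alpha chain of the IgE receptor, was called higher, at 1.06, 0.900, 2.45 and 1.13 CPM in BCP+MSC and 5.53, 9.70, 7.09 and 8.88 CPM in (dep)BCP+MSC+RvE1inj. All injected libraries exceeded BCP+MSC replicate 3, the highest of its group, and the log2 difference was 2.49 ± 0.54 (adjusted p = 0.0295). Fcer1a lost its call without injected replicates 2, 3 or 4 or BCP+MSC replicates 1, 2 or 4 (adjusted p up to 0.109). The mast cell receptor Kit was at 0.68 ± 0.50 (adjusted p = 0.568) and the protease Cpa3 at 0.72 ± 0.48 (adjusted p = 0.528). In the lists of 18 complement genes and 30 inflammatory cytokines and chemokines 0 were called, with medians of -0.03 and -0.33.

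The receptors of RvE1 were not called. Cmklr1 was at 54.6, 104, 55.4 and 75.4 CPM in BCP+MSC and 61.0, 64.2, 32.8 and 42.5 CPM in (dep)BCP+MSC+RvE1inj, with overlap, at -0.53 ± 0.24 on the log2 scale (adjusted p = 0.329). Ltb4r1, which also binds leukotriene B4, was at 33.2, 17.6, 53.4 and 14.4 CPM against 34.4, 27.8, 42.3 and 26.9 CPM, at 0.15 ± 0.52 (adjusted p = 0.944). Of 21 genes for these receptors and for eicosanoid enzymes 0 were called, with a median of -0.30.

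**Figure D4:**
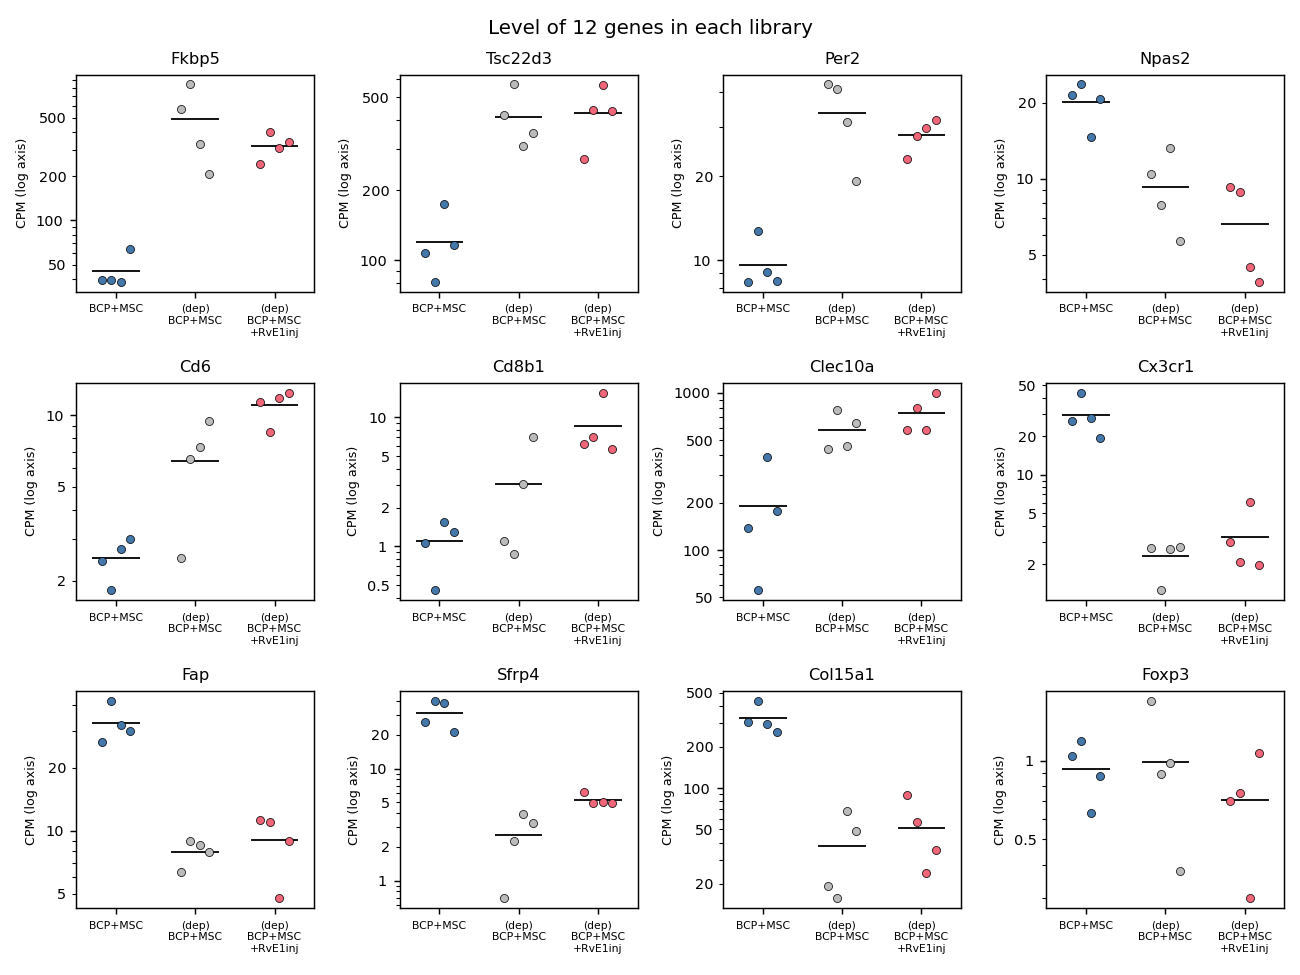
CPM on a log axis of 12 genes in each library of BCP+MSC (blue), (dep)BCP+MSC (grey) and (dep)BCP+MSC+RvE1inj (red), 4 libraries per group, with the arithmetic mean as a horizontal line. The red points lie clear of the blue ones for 11 genes, while Foxp3 overlaps in all 3 groups.

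Some genes called higher are known from wasting or fasting muscle. Of 22 such genes 3 were called higher and 0 lower, with a median of 0.87 and, in (dep)BCP+MSC, 1.49. Bnip3, a mitophagy receptor also induced by low oxygen, was at 49.9, 76.5, 83.7 and 114 CPM in BCP+MSC and 185, 285, 244 and 191 CPM in (dep)BCP+MSC+RvE1inj, without overlap, a log2 difference of 1.48 ± 0.28 (adjusted p = 0.0128). Fbxo31, a substrate adaptor of a ubiquitin ligase, was at 43.1, 21.4, 41.2 and 52.1 CPM against 89.4, 168, 330.3 and 129 CPM and differed by 2.18 ± 0.43 (adjusted p = 0.0162). Fbxo32, atrogin-1, another such adaptor of atrophying muscle, was at 76.2, 68.8, 59.3 and 126 CPM against 110.4, 414, 484 and 242 CPM. Injected replicate 1 lay within the BCP+MSC range, and the log2 difference was 1.92 ± 0.42 (adjusted p = 0.0319). Bnip3 lost its call without BCP+MSC replicate 1 (adjusted p up to 0.0543), Fbxo31 lost its call without injected replicate 3 or BCP+MSC replicate 2 (adjusted p up to 0.0804), and Fbxo32 lost its call without injected replicates 2, 3 or 4 or BCP+MSC replicates 1, 2 or 3 (adjusted p up to 0.131).

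In (dep)BCP+MSC the log2 differences from BCP+MSC were 2.32 for Bnip3, 2.97 for Fbxo31 and 3.13 for Fbxo32. The injected minus the uninjected toxin group gave -0.84 for Bnip3 (unadjusted p = 0.00619), -0.79 for Fbxo31 (unadjusted p = 0.0674) and -1.22 for Fbxo32 (unadjusted p = 0.0076), none past adjustment. Skeletal muscle transcripts varied among the same libraries as given above. With a skeletal muscle term in the fit the genes called were 121 higher and 155 lower, and 196 of the 202 remained called. Of 14 myogenic regulators 0 were called, with a median of 1.71, while 5 lay above BCP+MSC and 1 below without overlap. With the skeletal muscle term 3 of them were called higher and 0 lower.

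**Figure D5:**
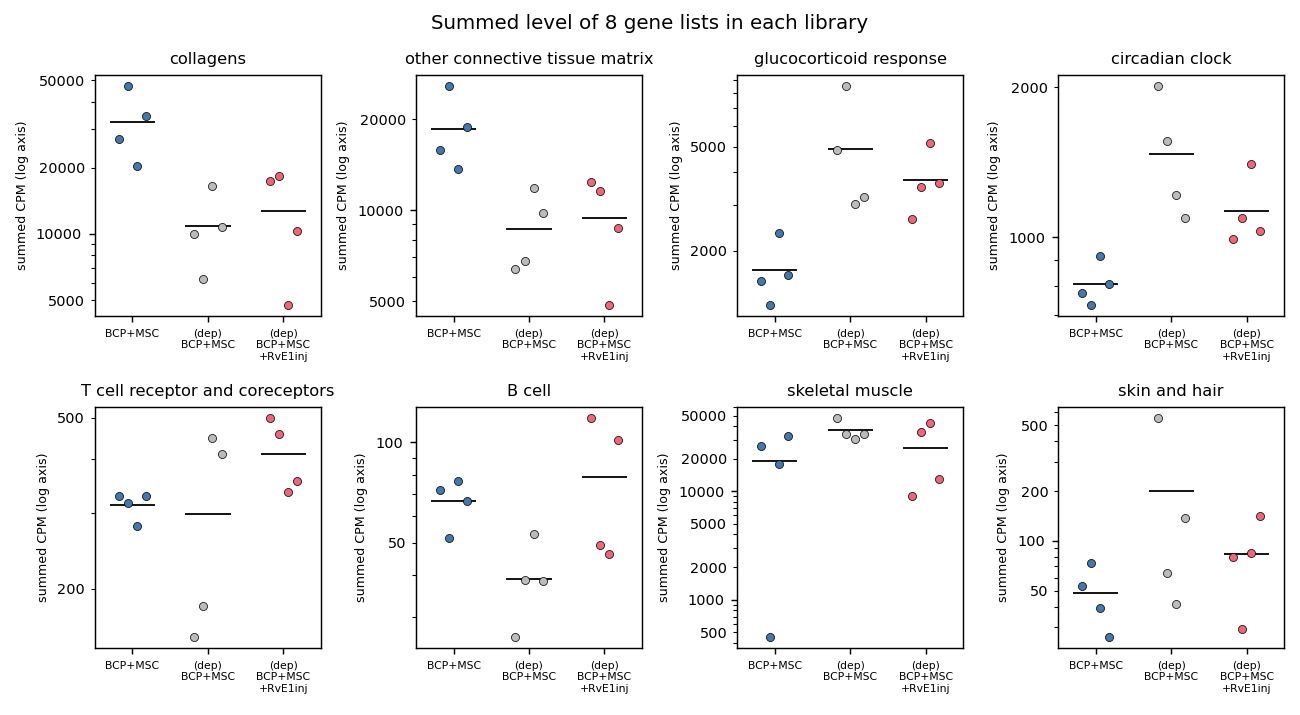
Summed CPM on a log axis of 8 gene lists in each library of the 3 groups, with the arithmetic mean as a horizontal line. Collagens and other matrix genes are lower and glucocorticoid and clock genes higher in all (dep)BCP+MSC+RvE1inj libraries than in BCP+MSC, whereas B cell, skeletal muscle and skin sums overlap.

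Other named genes among the 8 higher with the smallest adjusted p were Kif28, Cd38 and Bst1. Cd38 and Bst1 are neighbouring genes on chromosome 5 whose enzymes both consume NAD and make cyclic ADP-ribose. Cd38 was at 13.7, 19.9, 45.0 and 28.9 CPM in BCP+MSC and 96.0, 82.2, 61.4 and 89.8 CPM in (dep)BCP+MSC+RvE1inj, a log2 difference of 1.61 ± 0.27 (adjusted p = 0.00556). Bst1 was at 37.0, 50.6, 58.2 and 34.1 CPM against 109.6, 108, 87.1 and 107 CPM, a log2 difference of 1.20 ± 0.20 (adjusted p = 0.00594). Neither gene overlapped between groups, and in (dep)BCP+MSC the log2 differences from BCP+MSC were 1.90 and 1.23. Kif28, a kinesin, was at 0, 0.0153, 0.0165 and 0.0445 CPM in BCP+MSC and at 0.315, 0.754, 2.69 and 0.533 CPM in (dep)BCP+MSC+RvE1inj, at least 19.7-fold higher against the floor of 3 counts per library averaged over the group (adjusted p = 0.00556). Kif28 overlaps Ahctf1 on the same strand.

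In the remaining lists few or no members passed. Of 22 hypoxia and glycolysis genes 1 was called higher, Bnip3, with a median of -0.01. In lists of 17 adipocyte, 20 endothelial, 35 respiratory chain, 20 immediate early, 12 amphiregulin and EGF family and 11 metallothionein and zinc transporter genes 0 were called, with medians of 0.43, -0.35, 0.32, -0.11, 0.61 and -0.02. Of 26 cell cycle genes 0 were called as well, but 25 had a negative log2 fold change and 13 lay below BCP+MSC without overlap, with a median of -0.65.

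With other tools and sets of libraries the number of genes called changed. edgeR on the 8 libraries alone called 25 higher and 15 lower, and DESeq2 on all 24 called 425 and 427. In male libraries only, with a single BCP+MSC library assumed to vary like those of other groups, 1 was higher and 10 lower, and 9 of the 202 remained called.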

How the data were processed

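RNA was sequenced from whole constructs of 24 mice, 4 per group. The deposited values are raw read counts per gene: per the labels and the study's methods, the authors aligned paired reads of stranded mRNA libraries with HISAT2 2.0.5 and counted exons with featureCounts 1.5.2 on GENCODE M13 (GRCm38). No strand setting is stated, so that overlapping genes on opposite strands may share reads, and near-identical families may be split. Picard and STAR are also listed, without a role. Symbols came from GENCODE M21, which matched 50376 of 51138 identifiers.

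edgeR 4.0.16, run in R 4.3.3, fitted a quasi-likelihood model of all 6 groups to the 30564 of 51138 genes that reached 10 counts over the 24 libraries, with TMM factors and robust dispersion. SE is the log2 fold change divided by the square root of F. CPM are counts per 1000000 of the TMM-scaled library size, and exact permutation tests, all two-sided, used log2 CPM with a prior count of 2 over 70 arrangements. Floors were 3 counts per library and cover counting error only. The 8 libraries held 13803176 to 84138305 counts. DESeq2 1.42.0 was an alternative. Replicates of a group differed beyond sampling noise. On counts simulated from these means over 29654 genes, 55 of 100 genes changed by 1.5 on the log2 scale, 90 of 100 changed by 3 and 1 unchanged gene were called. The changed genes were drawn from those with a mean above 1 CPM, and no sex difference between groups was simulated.

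Named genes were the 8 protein-coding genes with the smallest adjusted p among those called and not overlapping in each direction, up to 3 called members of each gene list, the target of the toxin, and genes the study names, of which 3, with some other genes, are not reported here. The members, the 38 lists and the tests were chosen with earlier results of these data known. Other genes named were chosen after their values were seen. Alternatives were other size factors, filters, tools and libraries, terms for replicate number, depth, sex, muscle and skin, thinning to 8482701 counts, and each library left out. Promoter windows are from RefSeq (GRCm38.p6).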

Additional observations from a re-analysis of the deposited data

Results flagged for a closer look

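In 15 group and gene pairs among the named genes 1 library stood far from the other 3 of its group, by a test that flags about 1 in 20 groups of 4 by chance. In BCP+MSC these were replicate 4 for Fkbp5 (64.0 CPM), Ibsp (15.4 CPM) and Cxcr6 (4.11 CPM), replicate 2 for Per2 (12.7 CPM) and Ccl5 (5.56 CPM), and replicate 3 for Fcer1a (2.45 CPM), H2-Q4 (139 CPM) and H2-Q6 (63.0 CPM). In (dep)BCP+MSC+RvE1inj they were replicate 3 for Bst1 (87.1 CPM), Cd8b1 (15.6 CPM) and Sp7 (0.895 CPM), replicate 1 for Sfrp4 (6.13 CPM), Per3 (18.2 CPM) and Lck (27.2 CPM), and replicate 4 for Ctla4 (16.9 CPM). Only for Ibsp did a fit without the library that stood apart move a called log2 fold change by more than 1.5 times.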

How the results depend on the processing

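Against 74 genes higher and 128 lower, edgeR on the 8 libraries alone called 25 and 15, DESeq2 on all libraries 425 and 427 and on the 8 libraries 544 and 434. A sex term gave 147 and 204, and a muscle term 121 higher. In male libraries only, chosen after seeing the data and with 1 BCP+MSC library assumed to vary like the others, 1 was higher and 10 lower, and 478 were higher at an unadjusted p. The filterByExpr filter gave 1012 higher at an unadjusted p. With 1 library left out the counts ran from 21 to 88 higher and from 17 to 116 lower, lowest for genes higher without BCP+MSC replicate 1 and for genes lower without injected replicate 4. Of 56 named called genes 20 stayed called in all 8 such fits and 3, Tigit, Lck and Cxcr6, in none, and 11 to 31 were lost in each, with 31 and 28 lost without injected replicates 4 and 3, which are shallow, and 27 and 26 without BCP+MSC replicates 1 and 2, which are not. Ltb4r1 changed sign with a sex term (-0.25) and with 1 library left out (-0.0807 to 0.60), Sp7 when thinned (0.44) and with 1 library left out (-1.59 to 0.25), and Col27a1 in male libraries (0.056). The causes were not tested.

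A replicate block gave 89 higher and 135 lower. Same-numbered libraries of the groups correlated at -0.271, -0.134, 0.501 and -0.2. The labels give no pairing between groups, and whether same-numbered samples shared a batch was not tested. Depth limits genes near the floor of 0.197 to 0.217 CPM in the shallow injected libraries, such as Il17f and Sp7.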

Other observations

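The genes below were chosen after their values were seen. Further T cell genes outside the list were called higher: Cd69, an early activation marker, at 1.81 ± 0.34 on the log2 scale (edgeR adjusted p = 0.0121), Bcl11b, a T lineage transcription factor, at 1.85 ± 0.40 (adjusted p = 0.0248), Ubash3a, a regulator of receptor signalling, at 2.34 ± 0.49 (adjusted p = 0.0199) and Cxcr6, a homing receptor, at 2.22 ± 0.50 (adjusted p = 0.0355). Cd69 lost its call without injected replicate 4 (adjusted p up to 0.057), Bcl11b lost its call without injected replicates 3 or 4 or BCP+MSC replicates 1, 2 or 3 (adjusted p up to 0.0834), and Ubash3a lost its call without injected replicates 3 or 4 or BCP+MSC replicates 1 or 2 (adjusted p up to 0.0866). Cxcr6 lost its call whichever library was left out (adjusted p up to 0.122). The class I genes H2-Q4 and H2-Q6, close relatives whose reads may be split, were higher at 1.23 ± 0.26 (adjusted p = 0.0217) and 1.70 ± 0.29 (adjusted p = 0.00597). H2-Q4 lost its call without injected replicates 3 or 4 or BCP+MSC replicates 1, 2 or 4 (adjusted p up to 0.0834).

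Some genes of sterol supply were called lower. Cyp51, an enzyme of cholesterol synthesis, was at 47.5, 25.9, 28.3 and 35.6 CPM in BCP+MSC and 12.0, 9.68, 18.9 and 13.6 CPM in (dep)BCP+MSC+RvE1inj, a log2 difference of -1.35 ± 0.28 (adjusted p = 0.0186). Stard4, which carries cholesterol, was at -1.35 ± 0.28 (adjusted p = 0.0199). Cyp51 lost its call without injected replicates 1, 2 or 4 or BCP+MSC replicate 1 (adjusted p up to 0.0784), and Stard4 lost its call without injected replicates 2, 3 or 4 or BCP+MSC replicates 2 or 4 (adjusted p up to 0.0962). Glul, the enzyme that makes glutamine, was higher, at 353, 427, 397 and 599 CPM in BCP+MSC and 1230, 1481, 1592 and 1327 CPM in (dep)BCP+MSC+RvE1inj, a log2 difference of 1.67 ± 0.29 (adjusted p = 0.00816), and its call held without any one library.

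Rtl1, Meg3 and Mirg, imprinted transcripts of one region of chromosome 12, were each called lower. Rtl1 was at 6.60, 8.41, 5.76 and 3.56 CPM in BCP+MSC and 1.69, 1.51, 1.04 and 0.888 CPM in (dep)BCP+MSC+RvE1inj, a log2 difference of -2.22 ± 0.40 (adjusted p = 0.00816). Meg3 was at -1.83 ± 0.40 (adjusted p = 0.0319) and Mirg at -1.96 ± 0.43 (adjusted p = 0.0301). Other imprinted genes called lower were Plagl1 on chromosome 10, a zinc finger factor, at -1.74 ± 0.34 (adjusted p = 0.0152) and Igf2r on chromosome 17, which clears IGF2, at -1.28 ± 0.25 (adjusted p = 0.0133). Dnmt3a, a DNA methyltransferase, was lower at -1.69 ± 0.32 (adjusted p = 0.0128). Whether the calls of Dnmt3a and these imprinted genes hold with 1 library left out was not examined. They are outside the 56 named called genes counted above, and imprinted genes were not examined as a set.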
